A study of Mus musculus with 12 samples.

Results

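The RNA levels of 9 genes of homologous recombination and Fanconi repair, Brca1, Brca2, Rad51ap1, Rad54l, Fanca, Fancd2, Fanci, Blm, and Exo1, were followed in mouse embryonic fibroblasts treated with deazaneplanocin A (DZ), adenine, or S-adenosylmethionine (SAM). The genes were listed by name with earlier results of these data known, were found by matching the Ensembl identifiers of the expression table to their symbols, and were all among its 12591 genes. All 9 were higher in adenine and in SAM than in the control (CTL), by 2.77- to 6.08-fold in adenine and by 2.72- to 7.64-fold in SAM. DZ gave changes of 1.03- to 1.66-fold in the same genes, and 6 of them were called higher. Calls were made at a false discovery rate (FDR) of 0.01. Of all genes, 22.6% were called higher in DZ, 30.6% in adenine, and 33.7% in SAM. The DZ count of the 9 genes ran from 4 to 7 over alternative analyses, and the call of Fanca was lost in several.

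The cells came from embryos of heterozygous PER2::LUC knock-in mice on a C57 background, which carry a fusion of luciferase with PER2, a protein of the circadian clock, and they are an immortalized culture. They were grown to confluence, a state in which fibroblasts are contact-inhibited, and were then given fresh medium for 24 h with 10 μM DZ, 1 mM adenine, 1 mM SAM, or no added drug (CTL). All 4 groups, CTL included, received 3.3 mM HCl, the solvent of adenine. DZ is an inhibitor of AHCY, the enzyme that clears S-adenosylhomocysteine after methylation, SAM is the methyl donor, and the study asked whether excess SAM acts through its breakdown to adenine. Each group had 3 replicate dishes, so the p-values given here measure the spread between dishes of 1 culture.

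Homologous recombination repairs a broken chromosome by copying the intact sister chromatid, and so works mainly in cells that are replicating or have replicated their DNA. The broken ends are first trimmed to single strands, these strands are prepared for pairing, they invade the sister, and the joined molecules are finally taken apart. The Fanconi pathway joins this process at crosslinks that block replication forks: its core complex attaches ubiquitin to a pair of proteins that then bring in nucleases and the recombination proteins. Many genes of both pathways are transcribed more in proliferating cells than in resting cells, and several are targets of E2F transcription factors.

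Sequencing was done on the polyadenylated RNA of every dish, and values are given as log2 CPM (a gene's reads relative to the normalized size of its library) as deposited by the authors. Reads on the listed genes ranged from 45649534 in CTL to 56789090 in SAM. The 9 genes had between 131 reads (Fanci) and 4569 reads (Brca1) in a library, so counting noise was largest for Fanci and Rad54l in CTL. SAM replicate 3 stood apart from the other SAM libraries, with a chi-square of 15.7 and 19.1 per degree of freedom against them, where other replicate pairs had 4.76 to 7.07. Without it the SAM changes of the 9 genes moved by at most 0.12 on the log2 scale and ran from 1.56 to 2.97, and the SAM count of each gene list used here changed by at most 1 gene in either direction. Fibroblast markers were expressed, with Col1a1 at 11.7 and Fn1 at 13.6 log2 CPM in CTL and 9 of 11 markers in the table. Their levels moved with treatment, 7 being higher and 1 lower than CTL in DZ, 6 higher and 1 lower in adenine, and 8 higher and 1 lower in SAM by limma. The changes ran up to the 1.99 of Col3a1 in adenine and the 2.55 of Pdgfra in SAM. Fn1 rose by 0.33 in DZ and fell by 0.43 in adenine and 1.58 in SAM. The part of these markers in the results was not tested. Of all genes, 22.6% were called higher and 23.4% lower in DZ, 30.6% and 31.0% in adenine, and 33.7% and 35.7% in SAM. Of markers of other cells, 0 of 5 epithelial, 0 of 4 endothelial, and 1 of 7 leukocyte genes (Cd68) were listed. Cd68, a lysosomal protein of macrophages, was at 1.80 log2 CPM in CTL and rose by 1.73 in adenine and 2.28 in SAM, in the same direction as the 9 genes, and its part in the results was not tested.

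RefSeq promoter windows of build GRCm38.p6, reaching from 250 bases before to 50 bases after the gene start, were found for 7 of the 9 genes, all but Fancd2 and Exo1. These windows were searched on both strands for 3 kinds of motif, the E2F forms TTTCCCGC, TTTCGCGC, TTTGCCGC, and TTTGGCGC, the cell cycle homology region (CHR) forms TTTGAA and TTCGAA, and the CCAAT box bound by NF-Y. No match overlapped another in these windows. The stretches printed here, all from before the start, are shown because they hold the matches in Brca1 and Brca2, the best known genes of the set, and in Rad54l and Fanca, whose CCAAT boxes lie at the same place. Capitals mark the match, in the direction of the gene.
Brca1, GRCm38.p6 chr11:101551956-101552055, minus strand: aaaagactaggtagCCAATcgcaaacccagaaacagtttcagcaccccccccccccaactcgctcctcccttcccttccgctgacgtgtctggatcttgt
Brca2, GRCm38.p6 chr5:150522433-150522480, plus strand: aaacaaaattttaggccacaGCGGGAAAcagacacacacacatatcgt
Rad54l, GRCm38.p6 chr4:116123691-116123790, minus strand: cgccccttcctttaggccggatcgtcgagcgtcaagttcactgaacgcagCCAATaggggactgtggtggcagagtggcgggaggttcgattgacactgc
Fanca, GRCm38.p6 chr8:123318577-123318676, minus strand: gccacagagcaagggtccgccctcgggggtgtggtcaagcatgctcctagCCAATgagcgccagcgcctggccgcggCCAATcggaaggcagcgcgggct

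A CCAAT box was present in 5 of the 7 windows (71.4%), those of Brca1, Rad51ap1, Rad54l, Fanca, and Blm, against 39.6% of the first windows of 8821 genes in the expression table and 37.4% of all 32851 windows. Among the other genes of both pathways it was present in 36 of 60 windows. In Rad54l and in Fanca the box lay 50 to 46 bases before the start, and Fanca had another 23 to 19 bases before it. Only the window of Brca2 held one of the E2F forms, on the opposite strand 168 to 161 bases before the start, against 4.47% of the windows of genes in the table and 2.26% of all windows. A CHR form was found in 0 of the 7 windows and in 13.7% of those of genes in the table (19.2% of all). The window of Fanci held none of the 3 motifs. These matches describe letters in a window and do not show binding.

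**Figure D1:**
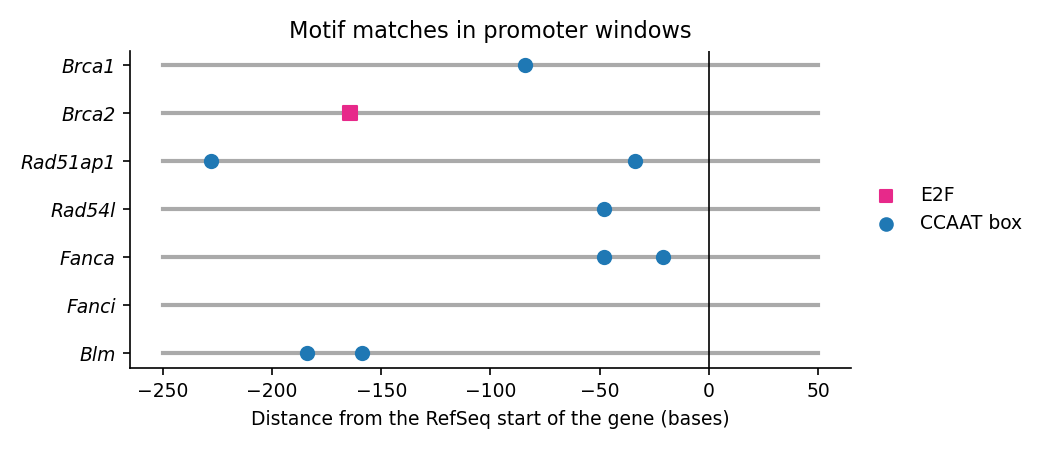
Positions of motif matches in the RefSeq promoter windows of 7 genes. The horizontal axis gives the distance in bases from the gene start (vertical line), grey bars are the windows searched, circles are CCAAT boxes, and the square is the E2F form of Brca2. The boxes of Rad54l and Fanca stand at the same distance, 50 to 46 bases before the start.

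BRCA1 and BRCA2, named for inherited breast cancer, act before strand invasion, BRCA1 by favoring the trimming of ends and BRCA2 by preparing the trimmed strands for it. Brca1 (GRCm39 chr11:101379577-101442781, minus strand) was at 3.34, 3.47, and 3.36 log2 CPM in the 3 CTL libraries and at 3.54, 3.80, and 3.74 in DZ. It was at 5.79, 5.73, and 5.84 in adenine and at 6.26, 6.21, and 6.08 in SAM. The 4 groups did not overlap and stood in the order CTL, DZ, adenine, SAM. By limma with Benjamini-Hochberg adjustment over all genes, Brca1 rose by 0.30 in DZ (SE 0.068, adjusted p = 1.42e-03), by 2.40 in adenine (adjusted p = 1.73e-13), and by 2.80 in SAM (adjusted p = 1.22e-14). The DZ change had an adjusted p of 0.0157 with voom on reads recovered from the table, above the FDR threshold of 0.01.

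Brca2 (GRCm39 chr5:150446057-150496080, plus strand) was at 3.72, 3.87, and 3.70 log2 CPM in CTL and at 3.81, 3.93, and 3.86 in DZ, with overlapping groups. It was at 5.11, 5.25, and 5.35 in adenine and at 5.39, 5.26, and 4.97 in SAM, all above CTL and DZ but overlapping each other. SAM replicate 3 was the lowest of these 6 libraries. Its change was 0.10 in DZ (SE 0.091, 95% confidence interval -0.096 to 0.29, adjusted p = 0.368 by limma), 1.47 in adenine (adjusted p = 8.99e-10), and 1.44 in SAM (adjusted p = 8.15e-10). These rises were the smallest of the 9 genes in both adenine and SAM. In adenine the interval of Brca2 (1.28 to 1.67) overlapped that of Blm (1.41 to 1.68), among others.

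RAD51AP1 helps the invading strand to pair with its partner, and RAD54L is a motor that remodels DNA during invasion. Rad51ap1 (GRCm39 chr6:126899446-126916587, minus strand) was at 3.47, 3.37, and 3.42 log2 CPM in CTL and at 3.68, 4.03, and 3.96 in DZ. It was at 5.34, 5.27, and 5.33 in adenine and at 5.79, 5.88, and 5.81 in SAM. No 2 groups overlapped. The limma changes from CTL were 0.47 in DZ (SE 0.073, adjusted p = 6.22e-05), 1.89 in adenine (adjusted p = 3.38e-12), and 2.41 in SAM (adjusted p = 1.24e-13).

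Rad54l (GRCm39 chr4:115948561-115980894, minus strand) was at 2.12, 1.94, and 2.16 log2 CPM in CTL and at 2.62, 2.94, and 2.50 in DZ. It was at 4.44, 4.40, and 4.54 in adenine and at 5.03, 5.07, and 4.93 in SAM, again with no overlap between groups. Rad54l had the largest rise of the 9 genes in SAM, 2.93 on the log2 scale (SE 0.099, 7.64-fold, adjusted p = 4.42e-13 by limma). Its 95% confidence interval (2.72 to 3.15) overlapped those of Brca1 (2.65 to 2.94) and Fanci (2.53 to 2.95), among others. It rose by 2.38 in adenine (adjusted p = 7.69e-12) and by 0.61 in DZ (adjusted p = 9.21e-05).

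FANCA is a scaffold of the Fanconi core complex, the ubiquitin ligase of the pathway. Fanca (GRCm39 chr8:123993038-124045331, minus strand) was at 4.42, 4.32, and 4.27 log2 CPM in CTL and at 4.41, 4.54, and 4.56 in DZ, where DZ replicate 1 fell within the CTL range. It was at 6.08, 6.05, and 6.11 in adenine and at 6.22, 6.23, and 6.12 in SAM. It rose by 1.75 in adenine (SE 0.051, adjusted p = 2.12e-13 by limma) and by 1.86 in SAM (adjusted p = 4.33e-14). In DZ its change of 0.17 had an adjusted p of 0.0098 by limma, which did not hold without CTL replicate 2 (0.0304), CTL replicate 3 (0.0484), DZ replicate 2 (0.0392), or DZ replicate 3 (0.0458). It did not pass either without a variance trend (0.0160), with quantile normalization (0.0180), with log2(CPM + 1) (0.0106), in a separate limma model of the pair of groups (adjusted p = 0.0318), or with voom (0.0288).

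FANCD2 and FANCI form the pair to which the core complex attaches ubiquitin, and the modified pair clamps onto DNA at the crosslink. Fancd2 (GRCm39 chr6:113508412-113573982, plus strand) was at 3.08, 3.19, and 2.99 log2 CPM in CTL and at 3.06, 3.10, and 3.20 in DZ, with the groups interleaved. It was at 5.08, 5.01, and 5.06 in adenine and at 5.56, 5.62, and 5.39 in SAM. All SAM libraries were above all adenine libraries, as they were for 3847 of all 12591 genes. By limma the change was 0.035 in DZ (SE 0.069, 95% confidence interval -0.11 to 0.18, adjusted p = 0.687), 1.96 in adenine (adjusted p = 1.47e-12), and 2.44 in SAM (adjusted p = 6.48e-14). The DZ value turned negative without CTL replicate 3 (-0.013) or DZ replicate 3 (-0.0055).

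Fanci (GRCm39 chr7:79041677-79100027, plus strand), the partner of Fancd2, was at 1.59, 1.58, and 1.98 log2 CPM in CTL and at 2.43, 2.36, and 2.55 in DZ. It was at 4.37, 4.23, and 4.35 in adenine and at 4.47, 4.51, and 4.39 in SAM. The DZ libraries were all above CTL, and the largest DZ change of the 9 genes was that of Fanci, at 0.73 (SE 0.099, adjusted p = 1.65e-05 by limma). Fanci also had the largest rise in adenine, 2.60 (6.08-fold, adjusted p = 3.14e-12), and rose by 2.74 in SAM (adjusted p = 9.67e-13). In DZ the interval of Fanci (0.52 to 0.94) lay above that of Fancd2, although a direct test between these 2 genes was not made. The same interval overlapped that of Rad54l (0.40 to 0.82), among others. In adenine the interval of Fanci (2.39 to 2.82) overlapped that of Brca1 (2.25 to 2.54), among others.

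BLM is the Bloom syndrome helicase, which takes joined molecules apart and also assists end trimming, and EXO1 is the nuclease that lengthens the trimmed single strand. Blm (GRCm39 chr7:80104481-80184899, minus strand) was at 4.02, 4.04, and 4.07 log2 CPM in CTL and at 4.27, 4.48, and 4.54 in DZ. It was at 5.59, 5.64, and 5.54 in adenine and at 5.90, 5.96, and 5.81 in SAM. The groups did not overlap, and the limma changes were 0.39 in DZ (SE 0.063, adjusted p = 8.56e-05), 1.54 in adenine (adjusted p = 6.17e-12), and 1.85 in SAM (adjusted p = 4.83e-13).

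Exo1 (GRCm39 chr1:175708143-175741055, plus strand) was at 2.39, 2.31, and 2.67 log2 CPM in CTL and at 2.49, 2.88, and 2.80 in DZ, with overlap. It was at 4.39, 4.49, and 4.65 in adenine and at 5.01, 4.90, and 5.02 in SAM, with no overlap. It rose by 2.05 in adenine (SE 0.11, adjusted p = 1.34e-10 by limma) and by 2.52 in SAM (adjusted p = 7.53e-12). Its change of 0.27 in DZ (95% confidence interval 0.035 to 0.499) had an adjusted p of 0.0469 by limma and did not pass, but it passed without CTL replicate 3 (0.00936) or DZ replicate 1 (0.00606).

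**Figure D2:**
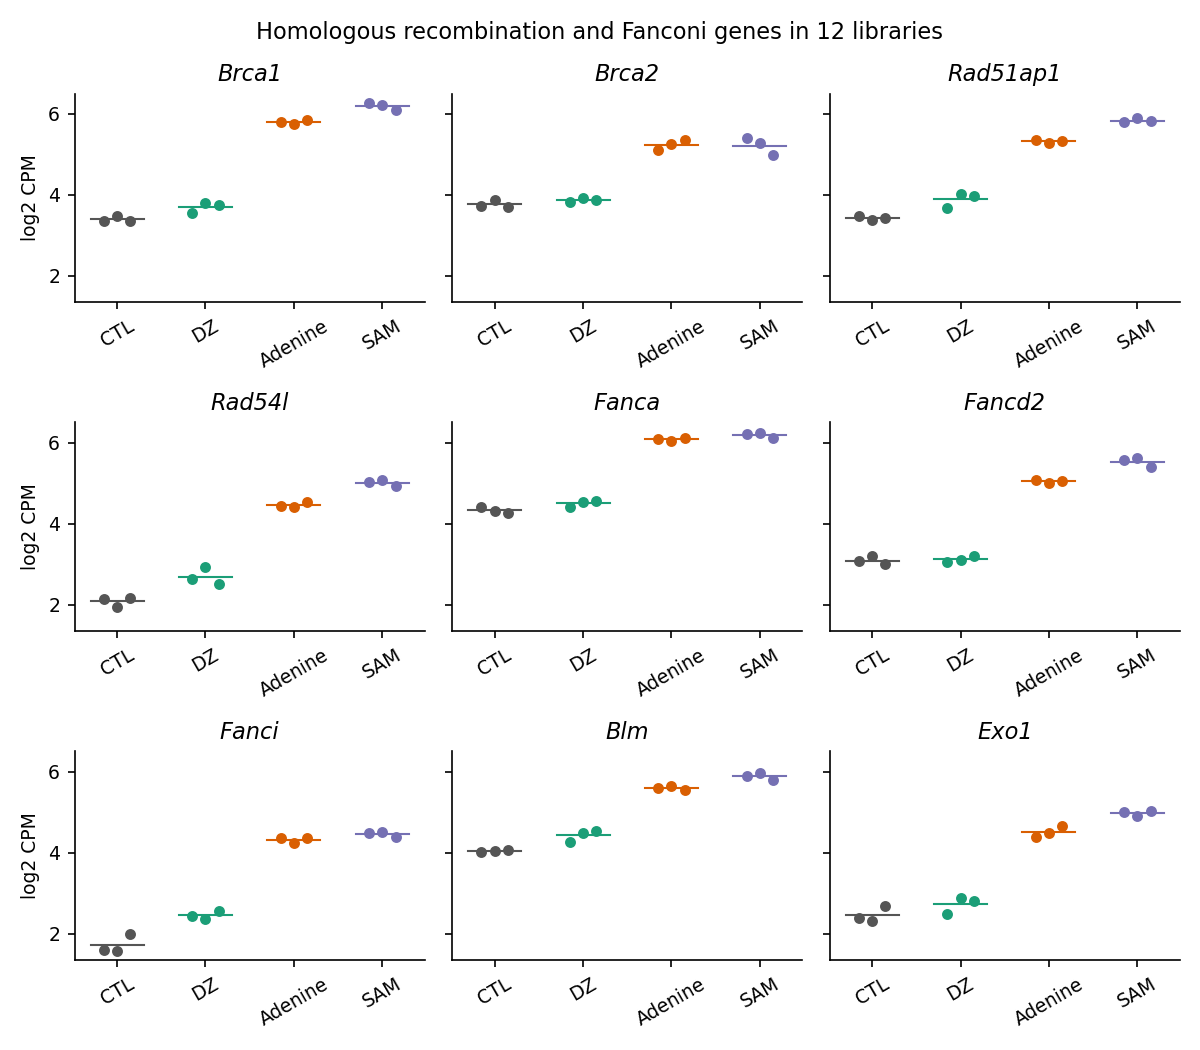
Level of each of the 9 genes in each of the 12 libraries. The vertical axis gives log2 CPM, points are the 3 replicates of CTL, DZ, adenine, and SAM, and lines are group means. In every panel the adenine and SAM points lie above all CTL and DZ points.

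In adenine 9 of 9 genes were higher than CTL and 0 were lower by limma at an FDR of 0.01, where 30.6% of all 12591 genes were called higher and 31.0% lower. In SAM 9 of 9 were higher, where 33.7% of all genes were called higher and 35.7% lower. In DZ 6 of 9 were higher and 0 lower, where 22.6% of all genes were called higher and 23.4% lower. The median change of the 9 genes was 1.96 in adenine, 2.44 in SAM (2.50 without SAM replicate 3), and 0.30 in DZ, beside medians over all genes of -0.0030, -0.015, and -0.0057. Every treated library was above every CTL library for 9 of the genes in adenine (37.0% of all genes), for 9 in SAM (37.6%), and for 5 in DZ (31.8%), namely Brca1, Rad51ap1, Rad54l, Fanci, and Blm. The 3 comparisons share the same CTL libraries. With libraries scaled by plain read totals the median of all genes in SAM was 0.11 and that of the 9 genes 2.56, and the share of all SAM calls that were higher was 61.2% in place of 48.5%. The 9 genes were listed with results of these data known, so these counts describe them and were not tested as a group.

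**Figure D3:**
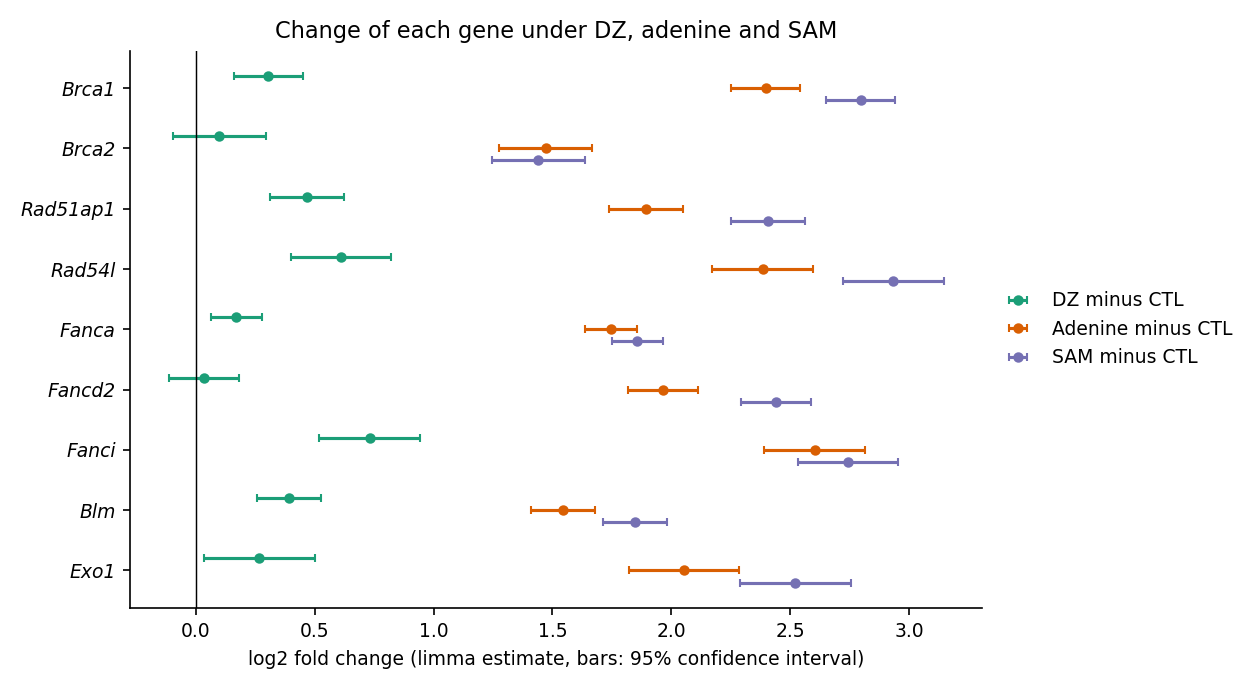
Log2 fold change from CTL of each gene in DZ, adenine, and SAM, as estimated by limma. Points are estimates and bars are 95% confidence intervals. DZ points lie between 0.035 and 0.73, whereas adenine and SAM points lie between 1.44 and 2.93.

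Adenine and SAM were both given at 1 mM and could be compared at a matched dose and time. SAM was higher than adenine by limma in 6 of 9 genes and lower in 0, where 20.8% of all genes were called higher and 22.0% lower, with a median difference of 0.40 over the 9 genes (0.45 without SAM replicate 3, and again 6 called). The differences were 0.55 for Rad54l (adjusted p = 2.63e-04 by limma), 0.51 for Rad51ap1 (adjusted p = 2.90e-05), 0.48 for Fancd2 (adjusted p = 3.88e-05), 0.47 for Exo1 (adjusted p = 1.96e-03), 0.40 for Brca1 (adjusted p = 1.57e-04), and 0.30 for Blm (adjusted p = 8.57e-04). The call of Exo1 was lost without adenine replicate 1 (difference 0.41, adjusted p = 0.0125). The other 3 genes did not pass. Fanca differed by 0.11 (95% confidence interval 0.0011 to 0.218, adjusted p = 0.0801 by limma) and Fanci by 0.14 (interval -0.073 to 0.35, adjusted p = 0.252), both with all SAM libraries above all adenine libraries. Such separation held for 8 of the 9 genes and for 3847 of all 12591 genes. Brca2 differed by -0.031 (interval -0.23 to 0.16, adjusted p = 0.795), and its difference became 0.088 without SAM replicate 3.

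DZ was given at 10 μM, so it stands beside the other drugs at another dose and the differences are those of these doses. All 9 genes were lower in DZ than in adenine, by 1.15 (Blm) to 2.09 (Brca1) on the log2 scale, where 32.2% of all genes were called lower by limma. All 9 were also lower in DZ than in SAM, by 1.34 (Brca2) to 2.49 (Brca1), where 34.0% of all genes were called lower. The largest adjusted p by limma among the 9 genes was 2.34e-09 against adenine and 2.04e-09 against SAM.

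The summed level of the 9 genes was 92.7 ± 0.247 CPM in CTL (SD, n = 3) and 114 ± 8.27 CPM in DZ. It was 346 ± 8.14 CPM in adenine and 431 ± 21.4 CPM in SAM. The libraries of the 4 groups did not overlap, with ranges of 92.4 to 92.9, 104 to 119, 340 to 356, and 406 to 444 CPM. The lowest library of DZ was replicate 1 and the lowest of SAM was replicate 3, without which the SAM mean was 443 CPM. In bulk RNA a larger share of cycling cells and more RNA of these genes in each cell cannot be told apart.

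**Figure D4:**
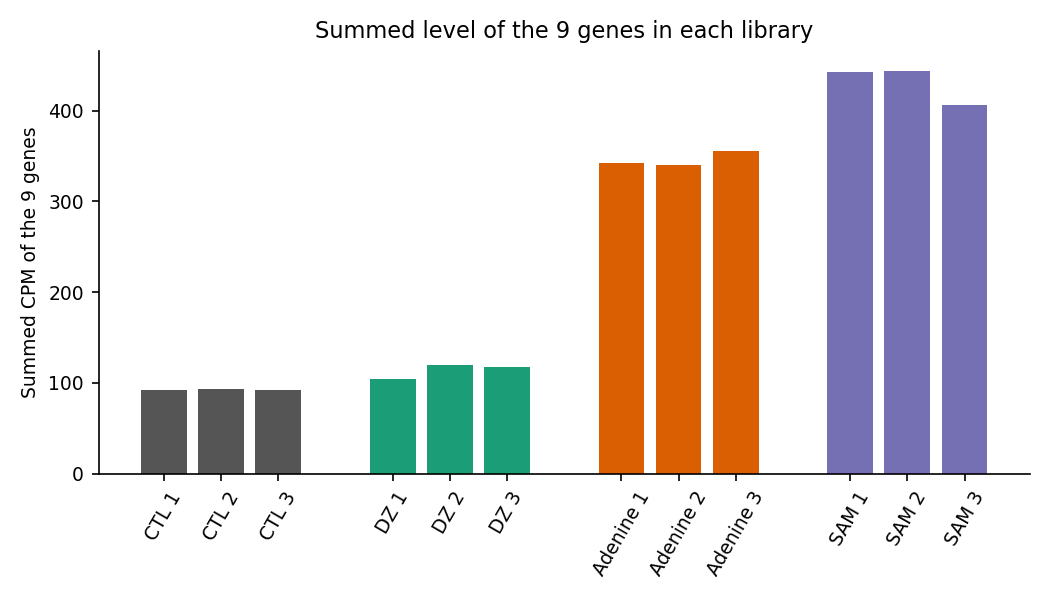
Summed CPM of the 9 genes in each library. The vertical axis starts at 0 and gives CPM, and each bar is 1 library, colored by group. CTL bars stand at 92.4 to 92.9, DZ at 104 to 119, adenine at 340 to 356, and SAM at 406 to 444.

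Levels of different genes were compared as CPM per kb of the canonical transcript. Its length ran from 2827 bases (Rad51ap1) to 13419 (Brca2), with 8647 for Rad54l, and the ranks depend on this choice of length. Without division by length, Rad54l was at 4.18 CPM in CTL and Fanci was lower, at 3.27. In CTL the highest was Rad51ap1 at 3.77 ± 0.130 CPM per kb (SD, n = 3), next to Blm at 3.57 ± 0.0701, and their ranges met. Fanca followed at 3.10 ± 0.165, and then Brca1 at 1.57 ± 0.0768 and Fancd2 at 1.47 ± 0.104, which overlapped. Brca2 was at 1.01 ± 0.0676, Exo1 at 0.703 ± 0.0957 and Fanci at 0.701 ± 0.116 overlapped, and Rad54l was lowest at 0.484 ± 0.0406 CPM per kb. The levels per kb of Rad51ap1, Blm, and Fanca, whose proteins act at different steps, were the highest of the 9 genes in control cells.

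In SAM the order of the upper genes was kept, with Rad51ap1 at 20.1 ± 0.674 CPM per kb, Blm at 12.9 ± 0.696, Fanca at 11.2 ± 0.466, and Brca1 at 11.0 ± 0.704, the last 2 overlapping. Fancd2 was at 8.03 ± 0.645, Fanci at 4.70 ± 0.188, Exo1 at 4.04 ± 0.186, and Rad54l at 3.72 ± 0.180 CPM per kb, with Exo1 and Rad54l overlapping. Brca2 was the lowest in SAM at 2.77 ± 0.399 CPM per kb. Per kb, Brca2 was thus sixth of 9 in CTL and last in SAM, also without SAM replicate 3 (2.99 CPM per kb). Without division by length it was not last in SAM, at 37.1 CPM beside 21.9 for Fanci. In adenine Rad54l was the lowest at 2.54 ± 0.124 CPM per kb, next to Brca2 at 2.81 ± 0.240, and their libraries overlapped. The ratio of the highest to the lowest of the 9 levels was 7.80 in CTL, 7.03 in DZ, 5.53 in adenine, and 7.26 in SAM.

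Across the 12 libraries each gene followed the mean of the other 8 with Pearson r from 0.977 (Brca2) to 0.9985 (Brca1). These correlations are a description, since the 12 points form 4 groups and share the rise from CTL to SAM. Outside the 9 genes, the genes most like their mean by this measure over 12 libraries were Zfp367 (r = 0.9992), Clspn (0.9991), Pole (0.9987), Ercc6l (0.9987), Bard1 (0.9985), Kif23 (0.9983), Sgo1 (0.9983), and Ncapg2 (0.9981). Clspn encodes claspin, a mediator of the replication checkpoint, and changed by 0.39 in DZ, 2.24 in adenine, and 2.68 in SAM. Pole, the leading-strand DNA polymerase, changed by 0.33 in DZ, 1.82 in adenine, and 2.07 in SAM, and Bard1 encodes the partner of BRCA1 in its ubiquitin ligase.

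Of 75 further genes of both pathways, 73 were in the table. By limma 46 were higher and 5 lower than CTL in adenine, 50 were higher and 11 lower in SAM, and 21 were higher and 9 lower in DZ. With plain read totals 51 were higher and 5 lower in SAM and 49 were higher and 3 lower in adenine. Without SAM replicate 3 the SAM counts were 49 higher and 11 lower. Their median changes were 0.43 in adenine, 0.56 in SAM, and 0.11 in DZ. Of all genes, 30.6% were called higher and 31.0% lower in adenine, 33.7% and 35.7% in SAM, and 22.6% and 23.4% in DZ. These shares of all genes also apply to the counts of each role list below, several of which lie near them. The changes of the 73 genes ran from -1.66 (Eme2) to 3.23 (Eme1) in SAM, as the plot by role shows. The 9 genes were listed with results of these data known and are fewer, so the 2 spreads are not compared.

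**Figure D5:**
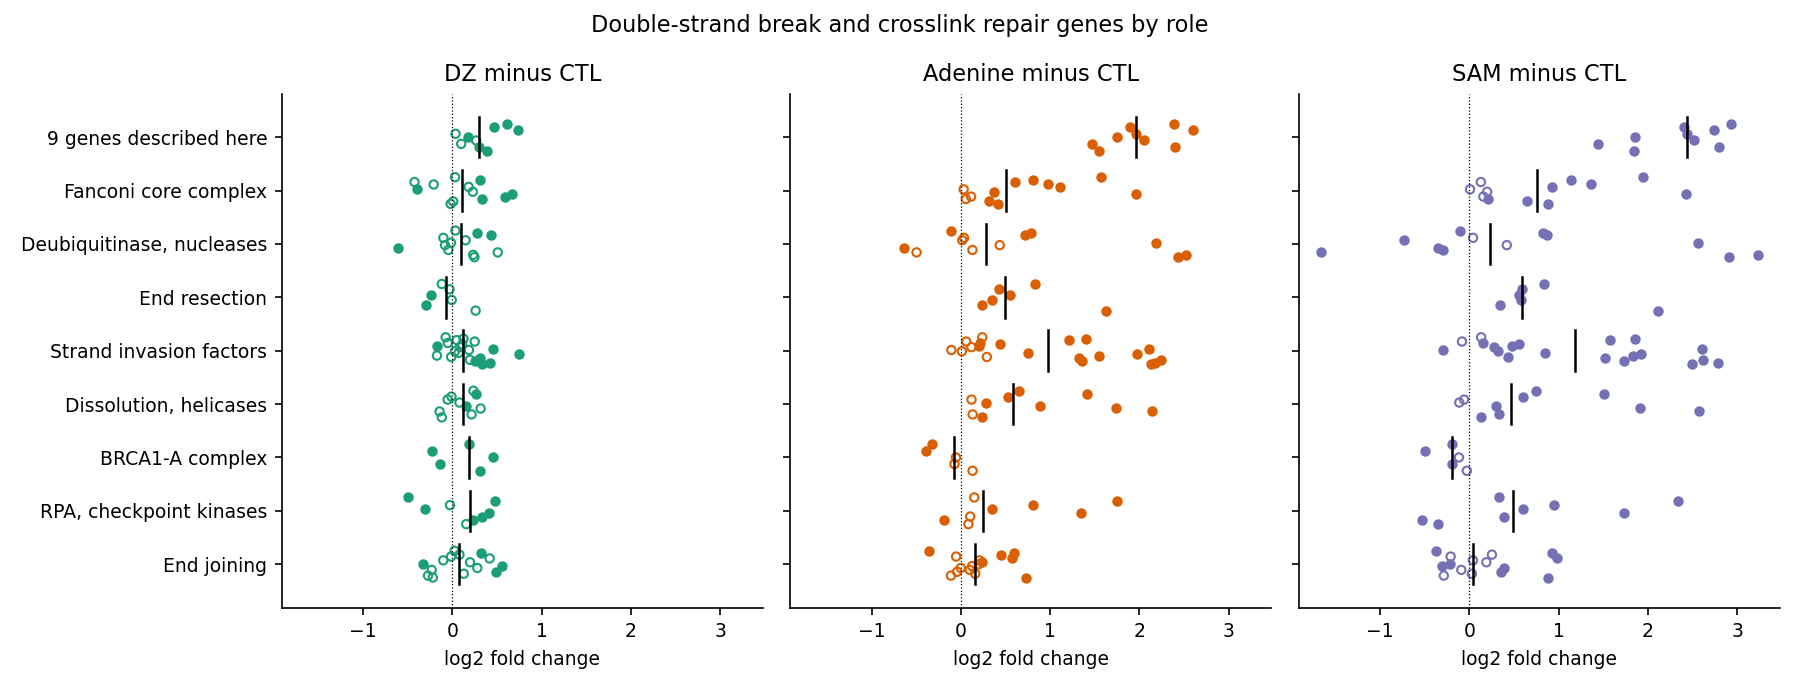
Log2 fold change from CTL of the 9 genes and of the other genes of double-strand break and crosslink repair, by role. Each circle is 1 gene, filled where it passed limma at an FDR of 0.01, and black lines are medians. In SAM the median of strand invasion factors is 1.18 and that of end joining is 0.041, beside 2.44 for the 9 genes. The 9 genes were listed with results of these data known.

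Among 20 strand invasion factors, the partners of Brca1, Brca2, Rad51ap1, and Rad54l, 17 were higher and 1 lower in SAM, 14 were higher and 0 lower in adenine, and 6 were higher and 1 lower in DZ. Bard1 rose by 2.13 in adenine and 2.49 in SAM, and its DZ change of 0.34 lost its call without CTL replicate 2 (adjusted p = 0.0243 by limma), DZ replicate 2 (0.0268), or DZ replicate 3 (0.0118). Palb2, which bridges BRCA1 and BRCA2, had -0.17 in DZ (adjusted p = 0.220 by limma) and rose by 1.55 in adenine and 1.83 in SAM. Rad54b, a relative of Rad54l, rose by 0.46, 2.10, and 2.61 in DZ, adenine, and SAM. The largest rise of this list in SAM was that of Fignl1, an ATPase of recombination, with 0.43 in DZ, 2.17 in adenine, and 2.79 in SAM. The recombination mediators Rad51c (0.75 and 0.84), Xrcc2 (1.21 and 1.57), and Xrcc3 (1.40 and 1.86) rose in adenine and SAM, whereas Rad52, an annealing protein, had -0.11 in adenine and fell by 0.30 in SAM, a fall that did not pass with plain read totals (adjusted p = 0.0107 by limma).

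A list of 12 genes held subunits of the Fanconi core complex, to which Fanca belongs, and partners such as Ube2t. Of these 12 genes, 9 were higher in adenine, 8 in SAM, and 4 in DZ, and 1 was lower, in DZ. Fancb, a core subunit, rose by 0.66 in DZ, 1.97 in adenine, and 2.42 in SAM (adjusted p = 1.42e-13 by limma), and Fancm, the subunit that anchors the complex to DNA, rose by 0.31 in DZ, 0.81 in adenine, and 1.14 in SAM. Ube2t, the ubiquitin-conjugating enzyme that acts on FANCD2, had 0.030 in DZ (adjusted p = 0.849 by limma) and rose by 1.57 in adenine and 1.94 in SAM. Fance, the subunit that contacts FANCD2, fell by 0.40 in DZ (adjusted p = 1.13e-05 by limma) and had 0.032 in adenine and 0.0088 in SAM. The changes within this list in SAM thus ran from the 0.0088 of Fance to the 2.42 of Fancb.

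Among 12 genes of the Fanconi deubiquitinase, nucleases, and partners, which act on or after FANCD2 and FANCI, 5 were higher and 2 lower in adenine, 5 were higher and 5 lower in SAM, and 2 were higher and 1 lower in DZ. Usp1, which removes ubiquitin from FANCD2, rose by 0.27, 0.78, and 0.83 in DZ, adenine, and SAM. Brip1, a helicase that binds BRCA1, had 0.25 in DZ (adjusted p = 0.0635 by limma) and rose by 2.43 in adenine and 2.91 in SAM. Eme1, a partner of the nuclease MUS81, rose by 2.52 in adenine and 3.23 in SAM, the largest rise of all these genes. Its CTL level was low, at 1.41, 0.76, and 0.61 log2 CPM, with 68 reads in its lowest library, so the size of its rise is uncertain. It also overlaps Lrrc59 and Mrpl27 on the opposite strand. Eme2, the other partner of MUS81, fell by 1.66 in SAM (adjusted p = 3.09e-05 by limma, with -1.32 without SAM replicate 3), but it overlaps Mapk8ip3 on the same strand, so its reads are uncertain. The nuclease Fan1 had 0.44 in adenine (adjusted p = 0.0120 by limma) and 0.42 in SAM (adjusted p = 0.0132).

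All 6 genes of end resection, the step of Exo1, were higher in adenine and in SAM, and 0 were higher and 2 lower (Mre11a and Rad50) in DZ. Dna2, the nuclease that works beside EXO1 and with BLM, rose by 1.63 in adenine and 2.11 in SAM. Rbbp8, which encodes CtIP and starts the trimming with BRCA1, rose by 0.43 in adenine and 0.59 in SAM. Mre11a, the nuclease of the first cut, fell by 0.30 in DZ and rose by 0.35 in SAM, and its rise of 0.23 in adenine lost its call without CTL replicate 3 (adjusted p = 0.0115 by limma). Among 10 genes of dissolution and helicases, which hold the partners of Blm, 8 were higher and 0 lower in both adenine and SAM, and 2 were higher in DZ. Parpbp, an inhibitor of recombination, rose by 2.14 in adenine and 2.57 in SAM. Polq, a polymerase of a mutagenic end joining route, rose by 1.74 in adenine and 1.91 in SAM. Recql4, another helicase, rose by 0.28 in adenine and had -0.11 in SAM (adjusted p = 0.0608 by limma).

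Not all partners of BRCA1 rose. Of 5 genes of the BRCA1-A complex, which limits end trimming, 0 were higher and 2 lower in adenine, 0 were higher and 3 lower in SAM, and 3 were higher and 2 lower in DZ. With plain read totals 1 was lower in SAM, and without SAM replicate 3 it was 4. Brcc3, its deubiquitinase, fell by 0.39 in adenine and 0.49 in SAM (adjusted p = 1.00e-06 by limma), and Abraxas1, its scaffold, had 0.13 and -0.027. Of 8 genes of RPA and the checkpoint kinases, 4 were higher and 1 lower in adenine, 6 were higher and 2 lower in SAM, and 4 were higher and 2 lower in DZ. Rpa1 and Rpa2, which coat the single strands, rose by 0.81 and 1.75 in adenine and by 0.95 and 2.34 in SAM. Chek1, the kinase that halts the cycle at damaged forks, rose by 0.41, 1.34, and 1.73 in DZ, adenine, and SAM. Atr, the kinase that activates it, rose by 0.23 in DZ and fell by 0.53 in SAM.

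For 15 genes of non-homologous end joining, the route that joins ends without a template, 5 were higher and 1 lower in adenine, 5 were higher and 3 lower in SAM, and 3 were higher and 1 lower in DZ. In the same order, 30.6%, 33.7%, and 22.6% of all genes were called higher, and 31.0%, 35.7%, and 23.4% lower. The median change of the 15 genes was 0.16 in adenine, 0.041 in SAM, and 0.080 in DZ. That of the 9 genes, which were listed with results of these data known, was 1.96, 2.44, and 0.30. In SAM the median of the 15 genes was 0.11 without SAM replicate 3, with 6 higher and 2 lower. With plain read totals it was 0.16, with 7 higher and 1 lower. Shld3 of the shieldin complex had the largest rise in SAM at 0.99, though it overlaps Trappc13 on the same strand. Xrcc6, which encodes the end-binding protein Ku70, had the largest fall, 0.38 in SAM (adjusted p = 5.12e-08 by limma).

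Most cell cycle genes were higher in adenine and in SAM, as the 9 genes were. Of 21 listed, 20 were higher and 1 lower in adenine, 19 were higher and 2 lower in SAM, and 11 were higher and 2 lower in DZ, with median changes of 1.45, 1.76, and 0.11. In the same order, 30.6%, 33.7%, and 22.6% of all genes were called higher, and 31.0%, 35.7%, and 23.4% lower. The listed genes lower in SAM were Cdkn1a, an inhibitor of the cycle (-1.16), and Mcm2 (-0.13), of which Mcm2 was also the listed gene lower in adenine. The proliferation marker Mki67 rose by 2.02 in adenine and 2.26 in SAM, the mitotic kinase Cdk1 by 1.45 and 1.83, cyclin A2 (Ccna2) by 1.78 and 2.26, the replication clamp Pcna by 0.93 and 1.23, and E2f1 by 0.91 and 1.15. In DZ the changes of the 21 genes ran from -0.75 (Cdkn1a) to 0.57 (Mybl2). Every DZ library was above every CTL library for 11 of the 21, and for 31.8% of all genes. The largest rises in DZ were those of the transcription factor gene Mybl2 (0.57), the replicative helicase gene Mcm3 (0.48), and the cyclin genes Ccnd1 (0.38) and Ccnb1 (0.38), with adjusted p of 1.60e-04 or less by limma. Of the genes named above, the DZ change was 0.28 for Mki67, 0.21 for Cdk1, 0.067 for Pcna, 0.097 for E2f1, and -0.19 for Ccna2. Of these 5 only the changes of Mki67 (adjusted p = 9.76e-03 by limma) and Cdk1 (adjusted p = 2.73e-03) passed, and neither call held in full when a library was left out. That of Mki67 was lost without CTL replicate 1, 2, or 3 or DZ replicate 2 or 3, with adjusted p by limma from 0.0147 to 0.0578, and also without a variance trend (0.0312), with quantile normalization (0.0160), or with voom (0.0188). The call of Cdk1 was lost without CTL replicate 1 or DZ replicate 2 or 3, with adjusted p by limma from 0.0135 to 0.0183, and without a variance trend (0.0114). The study saw no effect of SAM on cycling or death in its confluent cultures. In cells plated sparsely, 1 mM SAM stunted growth and cell numbers then declined. The part of the cell cycle in the changes of the 9 genes was not tested.

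On the GRCm39 annotation 6 of the 9 genes overlap another gene of the table, always on the opposite strand. The library kit keeps the strand, but whether the counting used it is not given in the sources used here. Brca2 overlaps N4bp2l1, which fell by 1.31 in adenine and 2.08 in SAM, and so moved against Brca2. The others were Lrrc41 at Rad54l, with -0.25 in adenine and 0.080 in SAM, Zfp276 at Fanca, with -0.40 and -0.32, Emc3 at Fancd2, with -0.10 and -0.071, Polg at Fanci, with -0.0003 and 0.24, and a pseudogene of Ndufab1 at Blm, with -0.17 and -0.19. The largest upward log2 change among these 6 genes in adenine or SAM was the 0.24 of Polg. In CTL, however, Polg was at 6.56 log2 CPM beside 1.71 for Fanci, and Lrrc41 at 6.63 beside 2.075 for Rad54l. Emc3 (6.76) and Zfp276 (5.65) also stood above Fancd2 and Fanca, whereas N4bp2l1 (3.61) and the pseudogene (2.94) stood below Brca2 and Blm. A small log2 change of a gene at a high level can hold many reads, and its part was not tested. No pseudogene named after any of the 9 genes was listed in the annotation. Several other genes named here also overlap a gene of the table on the opposite strand, so the same limit holds for their changes. Among them are Mus81, Palb2, Xrcc3, Xrcc6, Rpa1, Recql4, Mre11a, Wdr48, Ccna2, and Cdk1.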

How the data were processed

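PolyA-selected RNA of 12 libraries, 3 dishes in each of CTL, DZ, adenine, and SAM, was used. Per the study's methods and the submitters' processing notes, Trimmomatic trimmed the reads, HISAT2 aligned them to GRCm39 with the vM27 annotation of GENCODE, StringTie quantified transcripts, and edgeR was run on genes reaching 1 CPM in every sample. The authors deposited 1 table of 12591 genes, whose values are log2 CPM on normalized library sizes. The method of scaling is not given in the sources used here. It was analyzed as it stands, since normalized log2 values call for limma and not for a count model.

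Symbols and positions came from GENCODE vM39, which matched 12575 identifiers. Genes were tested with limma 3.58.1 in R 4.3.3 in 1 model of all libraries, with a variance trend and Benjamini-Hochberg adjustment over all genes at an FDR of 0.01. Fold changes are on the log2 CPM scale with a prior count of 2, which slightly understates the changes of low genes. The model was run on simulated counts in which 200 of 12591 genes differed between SAM and CTL by 1.5-fold or more. It called 100% of them, and 0% of its calls were false. That check held no smaller changes and no outlying library, so it does not speak to the weak DZ calls or to SAM replicate 3. Its changes were all upward and few, its dispersion was the same for all genes, and its library sizes were known. It therefore cannot show false calls that come from scaling or from uneven spread. Whole reads were recovered from the table (100% of 151092 values within 0.1 of a whole read) and gave the depth and the reads for voom. Alternatives were no trend, a mean filter of 3, quantile normalization, plain read totals, log2(CPM + 1), an FDR of 0.05, separate models, a replicate block, voom, and leaving out each library. Python 3.11.15 drew the plots.

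All 9 genes are described, and 1 gene picked for the role lists is not reported here. Of the role lists, a set of standard partners and the largest and smallest SAM changes are named, with 8 genes most like the mean of the 9. The genes and lists were chosen with earlier results of these data known. Genes named to spell out a small count were chosen after their values were seen.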

Additional observations from a re-analysis of the deposited data

How the results depend on the processing

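The counts of the 9 genes called stayed at 9 against CTL in adenine and in SAM, and at 9 for DZ against adenine and against SAM, under all alternatives, leaving out each library included. In DZ against CTL the count was 6, from 5 to 7 when 1 library was left out and from 4 (voom) to 7 (FDR of 0.05) otherwise. In SAM against adenine it was 6, from 5 to 6 when 1 library was left out. The other 73 pathway genes gave 24 to 32 calls in DZ, 47 to 49 in adenine, and 57 to 60 in SAM when 1 library was left out, and 28 to 39, 42 to 54, and 53 to 63 otherwise.

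Of the changes of single members, 790 values kept direction and call, 12 lost a call (10 of them Fanca in DZ), 3 gained one (Exo1 in DZ), and 5 changed sign. Those 5 were Fancd2 in DZ without CTL replicate 3 (-0.0131) and without DZ replicate 3 (-0.0055), with a range of -0.0131 to 0.0878, and Brca2 in SAM against adenine with plain read totals (0.0295), without adenine replicate 3 (0.0271), and without SAM replicate 3 (0.0878), where its range was -0.121 to 0.0878 over all libraries left out. The cause was not tested. Of the called changes of other named genes, 2088 values kept their call, 96 lost it, and 1 changed sign, that of Wdr48 in SAM with plain read totals (0.0142).

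With the replicate block the counts of the 9 genes were 5 in DZ, 9 in adenine, 9 in SAM, and 6 in SAM against adenine, and those of the pathway genes 30, 52, and 62. The DZ calls of Fanca (adjusted p = 0.0152 by limma) and Mki67 (0.0103) were lost with the block, and no other call against CTL was lost with it among the named genes followed through the alternatives. Deviations of same-numbered libraries had Pearson r from -0.142 to 0.181 across genes, so the numbers do not pair the dishes. Plain read totals moved the median of all genes to 0.11 in SAM, 0.059 in adenine, and 0.019 in DZ, and those of the 9 genes to 2.56, 2.03, and 0.33. The share of all calls that were higher went from 48.5% to 61.2% in SAM and from 48.6% to 63.2% in SAM against adenine, and the pathway genes lower in SAM from 11 to 5. Depth limits Fanci and Rad54l most.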

Other observations

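Cdkn1a, which encodes the p21 inhibitor of cell cycle kinases, did not follow the 9 genes. It fell by 0.75 in DZ (adjusted p = 4.82e-06 by limma), rose by 0.54 in adenine (adjusted p = 6.01e-05), and fell by 1.16 in SAM (adjusted p = 9.98e-09). SAM and adenine at the same 1 mM thus differed in it by -1.70 on the log2 scale (adjusted p = 7.04e-10 by limma).

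Mcm2, a subunit of the replicative helicase, was the other cell cycle gene that was lower in SAM, by a change of -0.13, and the only one lower in adenine, by -0.11. With plain read totals these were -0.0098 and -0.046 and did not pass. With quantile normalization they were -0.015 (adjusted p = 0.685 by limma) and -0.060 (0.117) and did not pass either. The adenine call was also lost without a variance trend (adjusted p = 0.0208 by limma). The SAM call was also lost without CTL replicate 3 (adjusted p = 0.0116 by limma), and the adenine call without CTL replicate 1 or 3 or adenine replicate 1 or 2 (0.0203 to 0.0458).

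The 5 pathway genes lower in adenine were Ercc4 (-0.63), Brcc3 (-0.39), Uimc1 (-0.32), Atr (-0.19), and Wdr48 (-0.11). All 5 were also called lower in SAM, with Ercc4 at -0.35, Brcc3 at -0.49, Uimc1 at -0.20, Atr at -0.53, and Wdr48 at -0.11. With plain read totals Atr (adjusted p = 0.0174 by limma) and Wdr48 (0.153) did not pass in adenine, Uimc1 did not pass in SAM (-0.077, adjusted p = 0.110), and Wdr48 turned to 0.014 in SAM (adjusted p = 0.676). The calls of Wdr48 were also lost when any of several libraries was left out, with adjusted p by limma up to 0.0231 in adenine and 0.0162 in SAM. Mus81, whose partner Eme1 rose by 3.23 in SAM, had 0.017 in adenine and fell by 0.73 in SAM (adjusted p = 4.91e-07 by limma).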
